A study of Mus musculus with 48 samples.

Results

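The step from the end of the night to the morning was followed in the liver nuclei of Nono-/- mice, with 6 nuclear RNA libraries of the 48 libraries of the series. The 3 early light libraries were taken at ZT2, ZT4 and ZT6 (zeitgeber time, hours after lights on), when food was withdrawn, and the 3 late night libraries at ZT20, ZT22 and ZT0, at the end of the feeding phase. Members were chosen by their labels for genotype, RNA fraction and time. All mice of the series were C57BL/6, 14 weeks old, housed under a 12 h light and 12 h dark cycle, and given food in the dark phase only for a week before the livers were taken. The sources used here do not give the type of Nono allele. The same times of wild-type nuclear RNA and of Nono-/- total RNA from the same livers (6 libraries each) were used for comparison. Each library is a pool of 2 mice and each time has 1 library per genotype and fraction, so neighbouring times stand in for replicates. A p-value here is set by how far such pools differ within a window, time included.

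NONO, a nuclear protein of the DBHS family, binds RNA and DNA, takes part in paraspeckles and RNA processing, and has been found in complexes with PERIOD proteins of the circadian clock. In the clock, CLOCK and BMAL1 (the product of Arntl) activate genes with E-boxes, among them the Per, Cry and Nr1d genes. Their products repress this drive in turn, and the RORs and REV-ERBs compete at ROR elements of Arntl and Cry1. Feeding drives lipid and sterol synthesis and protein folding capacity in liver, while fasting draws on fatty acid oxidation, glycogen and autophagy. Intron reads of nuclear RNA come from transcripts before or during splicing, and exon reads of nuclear RNA also from spliced RNA that is still in the nucleus.

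Values are FPKM (fragments per kilobase of sequence, scaled to the mapped reads of the library) as deposited, over the introns or over the exons of a gene. Nono exons lay between 0 and 0.018 FPKM in the early light libraries of Nono-/- mice and between 0 and 0.016 FPKM in their late night libraries, and at 2.37 to 2.66 and 2.05 to 2.73 FPKM in the same windows of wild type. Nono introns kept signal in Nono-/- mice, at 0.416 to 0.567 FPKM in early light and 0.36 to 0.488 FPKM in late night, against 1.27 to 1.46 and 1.19 to 1.57 FPKM in wild type. The depth, read from the steps between low values, was 28.9, 21.1 and 23.0 M reads in early light and 25.5, 24.6 and 18.2 M reads in late night. Exons took 15.1% ± 0.671 of the reads in early light and 17.0% ± 1.13 in late night (SD, n = 3 each), and the libraries of the windows did not overlap (exact 2-sided permutation test, p = 0.1, the smallest that 3 against 3 can give). Introns took 75.3% ± 1.12 and 74.3% ± 1.496 of the reads (exact permutation p = 0.5). The ZT2 library stood apart, with 6034 genes at 1 FPKM or more in exons, against 7316 to 8231 in the late night libraries and up to 7554 in the other early light ones. Fold changes were therefore taken after scaling each library to the median gene. Without scaling the median gene shifts by -0.29 (log2) in exons and by -0.09 in introns from late night to early light.

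Markers of other cells were read in the same libraries. The summed exon signal of 8 hepatocyte markers was 721 to 1276 FPKM in early light and 1339 to 2061 FPKM in late night, and its introns were 348 to 475 and 397 to 526 FPKM. Exon sums of the 8 endothelial markers (21.5 to 32.1 and 35.7 to 53.5 FPKM), the 8 stellate markers (17.9 to 19.2 and 24.7 to 34.6 FPKM) and the 6 cholangiocyte markers (4.02 to 5.68 and 6.25 to 9.05 FPKM) were also lower in early light without overlap, while their intron sums overlapped. The 6 exocrine pancreas markers summed to 0.366 to 0.766 FPKM of exon signal in early light and 0.807 to 4.87 FPKM in late night, and the 4 globin genes of the erythroid list had no intron signal in any of the 6 libraries. Kupffer cell exon sums overlapped, at 16.8 to 39.6 and 21.9 to 39.0 FPKM. No tested Kupffer cell, endothelial, stellate, cholangiocyte or pancreas marker passed the gene test in introns or exons after scaling. Markers with a low mean were not tested. In exons 1 of 6 cholangiocyte, 5 of 8 stellate and 7 of 8 Kupffer cell markers were tested. In introns these were 2 of 6 cholangiocyte, 7 of 8 stellate and 5 of 6 pancreas markers. Of the hepatocyte markers Cyp2e1 introns rose (log2 1.20, limma adjusted p = 0.0111) and Ttr exons fell (log2 -1.37, limma adjusted p = 0.0283). Alas2, the erythroid heme synthesis enzyme, fell in exons (log2 -0.67, limma adjusted p = 0.0429). Exon sums of T and B cell markers (0.993 to 1.36 and 1.003 to 1.31 FPKM) and of neutrophil markers (0.402 to 1.25 and 0.262 to 0.626 FPKM, with Elane at 0) were low in both windows and overlapped, and the erythroid sums were 2.27 to 4.25 and 5.52 to 6.36 FPKM in exons and, in the other direction, 2.4 to 2.67 and 2.31 to 2.38 FPKM in introns, neither overlapping. All these sums are of values as deposited. On such values the exons of 24.2% of all tested genes lay wholly lower in early light and those of 4.05% wholly higher. For introns the shares were 17.8% and 10.2%. How far this wider shift enters the marker sums was not tested. In such bulk samples fewer cells of a type and less RNA per cell cannot be told apart, and the part of the marker shifts in the gene results was not tested.

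Intron signal changed in both directions at the switch. Of 12036 genes tested, 542 rose (4.5%) and 571 fell (4.74%) in early light relative to late night, by limma on log2 values with a Benjamini-Hochberg adjusted p under 0.05. These 1113 genes are 9.25% of those tested, where 26.9% had an unadjusted p under 0.05. Of them 128 rose and 186 fell by at least 2-fold. As deposited, the 3 early light libraries lay wholly above the 3 late night ones for 10.2% of all tested genes and wholly below for 17.8%, in all 28% of the genes. The count rested on single libraries: it was 359 without ZT0, 444 without ZT22, 560 without ZT20 and 570 without ZT6, against 1113 with all, 861 without ZT4 and 932 without ZT2. With the exon share of each library as a covariate, an alternative chosen after seeing the data, 608 genes were called, 577 of them among the 1113. Without scaling 327 genes rose and 683 fell, so higher calls made up 32.4% of the calls, against 48.7% with scaling, and the medians of 5 of 24 gene lists changed sign (clock repressors and outputs, insulin signalling, glucocorticoid targets, paraspeckle and nuclear RNA, splicing factors).

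Clock genes were among the steepest rises and falls. Nr1d2, which encodes the heme-binding repressor REV-ERBβ, had 2.75, 3.63 and 6.10 FPKM of intron signal at ZT2, ZT4 and ZT6, against 0.424, 0.416 and 0.639 FPKM at ZT20, ZT22 and ZT0. All early light libraries lay far above all late night ones, a 7.86-fold rise (log2 2.98 ± 0.37 SE, limma adjusted p = 0.000521). Nr1d1, which encodes REV-ERBα, had 0.806, 2.85 and 3.52 FPKM in early light and 0.193, 0.252 and 0.212 FPKM in late night. It climbed through the early light window while the late night libraries stayed low and level, and the rise was 8.11-fold (log2 3.02 ± 0.56 SE, limma adjusted p = 0.00532). Cry1, a cryptochrome that represses CLOCK and BMAL1, fell to 0.643, 0.278 and 0.381 FPKM in early light, against 2.965, 3.065 and 1.504 FPKM in late night. Its windows did not overlap, and the fall was 5.02-fold (log2 -2.33 ± 0.47 SE, limma adjusted p = 0.00785). These 3 calls held under each alternative tried. Nr1d2 lies at chromosome 14, 18204056 to 18239106, Nr1d1 at chromosome 11, 98767932 to 98775377, and Cry1 at chromosome 10, 85131700 to 85185054, all on the minus strand of mm10. Nr1d1 overlaps Thra on the other strand, whose reads cannot be told from its own here.

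The other 11 tested members of the list of 14 clock repressors and outputs did not pass. Dbp, a PAR bZIP factor and classic clock output, had 0.601, 2.04 and 6.03 FPKM in early light and 0.705, 0.545 and 0.487 FPKM in late night (log2 1.77, limma adjusted p = 0.0948), so that its ZT2 library still sat among the late night ones. Per2, the period repressor, had 0.556, 0.839 and 1.12 FPKM against 2.07, 1.70 and 1.49 FPKM (log2 -0.99, limma adjusted p = 0.0547), without overlap. Among the activators, Arntl, which encodes BMAL1, had 1.599, 1.295 and 0.2 FPKM in early light and 1.85, 2.09 and 1.92 FPKM in late night (log2 -1.21, limma adjusted p = 0.308), with a clear drop at ZT6 alone. Npas2, a partner of BMAL1 like CLOCK, had the same shape, with 1.32, 0.610 and 0.0240 FPKM against 0.876, 1.83 and 1.96 FPKM (limma adjusted p = 0.279).

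**Figure D1:**
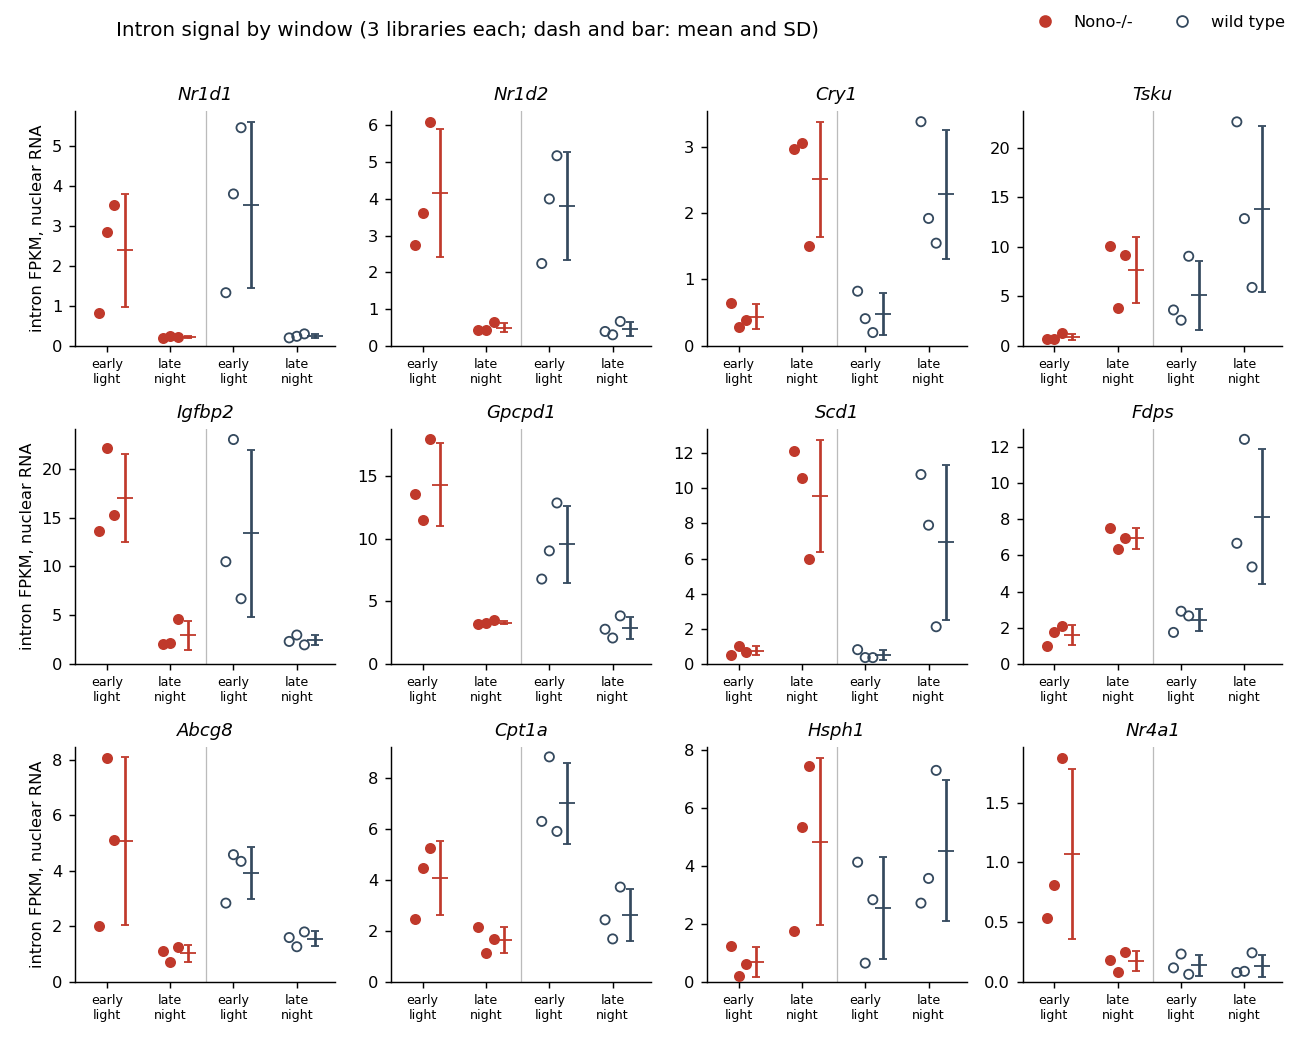
Intron FPKM as deposited of 12 genes in nuclear RNA, with early light (ZT2, ZT4, ZT6, left to right) and late night (ZT20, ZT22, ZT0) side by side in each genotype; filled red points are Nono-/- libraries, open points wild-type ones, and dash and bar the mean and SD of 3 libraries. In Nono-/- nuclei the early light points of Nr1d1, Nr1d2, Igfbp2, Gpcpd1, Abcg8, Cpt1a and Nr4a1 lie above all late night points and those of Cry1, Tsku, Scd1, Fdps and Hsph1 below them.

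Promoters of clock, gluconeogenesis and cAMP genes were searched on both strands of the 250 bases before the transcript start in RefSeq (GRCm38.p6) for the E-box CACGTG, the D-box TTATGTAA, the cAMP response element TGACGTCA and the ROR element NTAGGTCA. A promoter was found for 34 members, of which 5 held an E-box, 1 a D-box, 1 a cAMP response element and 3 a ROR element, where 6.02%, 0.817%, 1.55% and 2.22% of 32817 promoters did. Cry1, Ciart and Tef are shown as 3 of the 4 clock genes with an E-box, of which only Cry1 passed, and Per3 because it held the D-box, with the motifs in capitals and no 2 motifs overlapping:
Cry1: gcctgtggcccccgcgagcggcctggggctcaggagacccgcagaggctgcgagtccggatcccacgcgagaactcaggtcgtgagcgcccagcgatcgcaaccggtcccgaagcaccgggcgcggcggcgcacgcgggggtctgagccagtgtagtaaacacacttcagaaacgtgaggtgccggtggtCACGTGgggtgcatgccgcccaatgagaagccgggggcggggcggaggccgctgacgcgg
Ciart: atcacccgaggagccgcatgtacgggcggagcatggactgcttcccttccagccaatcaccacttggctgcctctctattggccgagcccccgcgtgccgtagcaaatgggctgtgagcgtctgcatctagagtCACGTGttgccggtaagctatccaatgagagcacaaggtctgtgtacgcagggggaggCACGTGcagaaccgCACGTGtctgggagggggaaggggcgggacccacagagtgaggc
Tef: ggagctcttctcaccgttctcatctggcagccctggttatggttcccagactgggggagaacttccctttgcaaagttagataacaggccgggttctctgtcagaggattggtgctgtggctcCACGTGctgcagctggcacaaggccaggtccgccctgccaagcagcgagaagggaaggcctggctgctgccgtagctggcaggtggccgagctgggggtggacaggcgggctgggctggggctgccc
Per3: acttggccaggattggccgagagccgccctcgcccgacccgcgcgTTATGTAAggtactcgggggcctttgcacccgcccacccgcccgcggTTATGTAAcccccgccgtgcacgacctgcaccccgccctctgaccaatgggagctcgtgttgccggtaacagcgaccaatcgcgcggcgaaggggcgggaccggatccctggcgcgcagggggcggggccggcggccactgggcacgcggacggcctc
They lie at chr10:85185055-85185304, minus strand (Cry1), chr3:95882229-95882478, minus strand (Ciart), chr15:81802423-81802672, plus strand (Tef) and chr4:151044666-151044915, minus strand (Per3). The E-box of Cry1 begins 60 bases before the start, those of Ciart, a repressor that acts on CLOCK and BMAL1, begin 116, 58 and 44 bases before it, and that of Tef, a PAR bZIP factor, begins 127 bases before it. Cry1 fell, while Ciart changed by 0.08 (log2, limma adjusted p = 0.956), Tef by 1.05 (limma adjusted p = 0.199), Bhlhe41, the fourth E-box clock gene, by 0.60 (limma adjusted p = 0.681) and Per3, with D-boxes 205 and 158 bases before its start, by 0.01 (limma adjusted p = 0.996). Nr1d1 and Nr1d2, which also passed, held none of the searched motifs in the bases searched. A match is a description of the letters and not a bound site.

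Of 20 fatty acid synthesis genes 3 fell and of 20 cholesterol genes 6, and none in either list rose, where 4.74% of all tested genes fell. Scd1, the stearoyl-CoA desaturase that makes monounsaturated fatty acids, had 0.517, 1.03 and 0.660 FPKM of intron signal in early light, against 12.1, 10.6 and 5.97 FPKM in late night. The windows were far apart and the fall was 11.6-fold (log2 -3.53 ± 0.55 SE, limma adjusted p = 0.00157). The other 17 genes of fatty acid synthesis did not pass, and the list had a median log2 change of -0.71 against -0.02 over all tested genes. The others that fell were Acacb, an acetyl-CoA carboxylase that makes malonyl-CoA (0.170 to 0.255 FPKM against 0.716 to 0.901 FPKM, 3.03-fold, limma adjusted p = 0.0285), and Insig1, which holds the SREBP precursor in the endoplasmic reticulum (14.5 to 16.9 FPKM against 36.7 to 55.9 FPKM, log2 -1.49, limma adjusted p = 0.0333). Both were lost without ZT0, ZT4, ZT6, ZT20 or ZT22 (highest adjusted p = 0.0986 for Acacb and 0.101 for Insig1). Of the list 1 to 3 genes fell when any 1 of the 6 libraries was left out. Fasn, the fatty acid synthase, had 0.417, 2.66 and 2.38 FPKM against 7.26, 2.63 and 6.43 FPKM (log2 -1.72, limma adjusted p = 0.133), with ZT22 at the level of ZT4. Scd1 lies at chromosome 19, 44394450 to 44407709, on the minus strand.

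In the mevalonate and cholesterol pathway 6 of 20 genes fell and 14 did not pass (median log2 change -0.81), and 4 or 5 fell with any 1 library left out. Fdps, which makes farnesyl diphosphate, had 0.960, 1.73 and 2.06 FPKM in early light and 7.53, 6.35 and 6.95 FPKM in late night. The late night libraries were close together and above every early light library, 4.24-fold (log2 -2.08 ± 0.37 SE, limma adjusted p = 0.00331). Mvd, which makes isopentenyl diphosphate, fell 3.22-fold (0.107 to 0.218 FPKM against 0.559 to 0.802 FPKM, limma adjusted p = 0.0109), and Lss, the lanosterol synthase, fell 3.07-fold (0.335 to 0.908 FPKM against 1.74 to 2.46 FPKM, limma adjusted p = 0.00729). The calls of Fdps, Mvd and Lss held under each alternative tried, although Lss overlaps 4930483K19Rik, whose reads cannot be told apart from its own. Pmvk, the phosphomevalonate kinase (0.405 to 0.753 FPKM against 1.49 to 2.84 FPKM, limma adjusted p = 0.0261), was lost without ZT2, ZT4, ZT20 or ZT22 (highest adjusted p = 0.0889). Dhcr7, of the last step to cholesterol, fell too (log2 -0.99, limma adjusted p = 0.0256) and was lost without any of ZT0, ZT2, ZT6, ZT20 and ZT22 (highest adjusted p = 0.0788).

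The hepatic sterol exporters moved the other way. Abcg5 had 2.18, 8.77 and 6.48 FPKM in early light and 1.14, 0.718 and 1.25 FPKM in late night, and its partner Abcg8 2.01, 8.06 and 5.10 FPKM against 1.11, 0.693 and 1.25 FPKM. Both transporter subunits, which together send sterols into bile, were highest at ZT4 and did not overlap between the windows. Abcg5 rose 5.03-fold (limma adjusted p = 0.0027) and Abcg8 4.48-fold (limma adjusted p = 0.002), under each alternative tried. Their annotated spans overlap on opposite strands of chromosome 17, so the values may share reads. Of the genes of bile acid synthesis and transport 1 of 10 rose, Slc10a1, the bile acid uptake carrier (log2 0.66, limma adjusted p = 0.0383), lost without ZT0, ZT4, ZT6 or ZT22 (highest adjusted p = 0.153), and 9 did not pass, so that the list stood within 1 gene of the 4.5% of all tested genes. Cyp7a1, the rate-limiting enzyme of bile acid synthesis, had 1.09, 1.61 and 4.85 FPKM in early light and 17.9, 15.3 and 2.81 FPKM in late night (log2 -2.06, limma adjusted p = 0.0547), with ZT0 already low.

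Of 15 ER stress genes 5 fell and of 10 tested heat and cold responsive genes 3, where 4.74% of all tested genes fell. In both lists no call was left without ZT0, ZT4, ZT6 or ZT22. Creld2, a secreted ER stress protein, had 0.146, 0.243 and 0.337 FPKM of intron signal in early light, against 0.609, 1.89 and 9.05 FPKM at ZT20, ZT22 and ZT0. Manf, a secreted factor of the same response, had 1.12, 0.554 and 0.619 FPKM in early light and 2.20, 5.91 and 11.2 FPKM in late night. Neither gene overlapped between the windows, and the late night libraries climbed to ZT0 before the drop at ZT2. The other 10 ER stress genes did not pass, and the median log2 change was -1.37. Of the 15, 10 had an unadjusted p under 0.05 (limma), where 26.9% of all tested genes did. The 5 were Sdf2l1 (log2 -2.97, limma adjusted p = 0.0436), Creld2 (-2.95, 0.0478), Manf (-2.70, 0.0275), Pdia4, a protein disulfide isomerase (-2.01, 0.0285), and Calr, the calcium-binding chaperone calreticulin (-1.95, 0.0428). Each of the 5 lost its call without ZT0, ZT4, ZT6 or ZT22, and Sdf2l1 and Creld2 also without ZT2 (highest adjusted p from 0.123 to 0.223). The list count ran from 0 to 6 with any 1 library left out. Hspa5, the ER chaperone BiP, had 6.26, 2.95 and 4.06 FPKM against 5.48, 15.2 and 37.1 FPKM (log2 -1.70, limma adjusted p = 0.127), and overlapped through ZT20. Pdia4 contains Mir704, whose reads cannot be told apart from it.

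Of the 10 tested heat and cold responsive genes 3 fell and 7 did not pass, where 4.74% of all tested genes fell. The median log2 change was -1.06, with all 10 below 0. Hsph1, a co-chaperone of the HSP110 family, had 1.22, 0.196 and 0.606 FPKM in early light and 1.73, 5.34 and 7.43 FPKM in late night, a 6.67-fold fall (limma adjusted p = 0.0305). Hsp90ab1, the HSP90β gene, had 3.66, 1.82 and 3.06 FPKM against 5.69, 7.78 and 10.99 FPKM (log2 -1.43, limma adjusted p = 0.0352). Dnajb1, an HSP40 co-chaperone, had 1.22, 0.457 and 1.01 FPKM against 2.01, 2.54 and 3.76 FPKM (log2 -1.55, limma adjusted p = 0.0345). The 3 genes were each highest at ZT0 and lowest at ZT4. All 3 lost their calls without ZT0, ZT4, ZT6 or ZT22 (highest adjusted p from 0.123 to 0.144), and the list count ran from 0 to 4 with any 1 library left out.

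**Figure D2:**
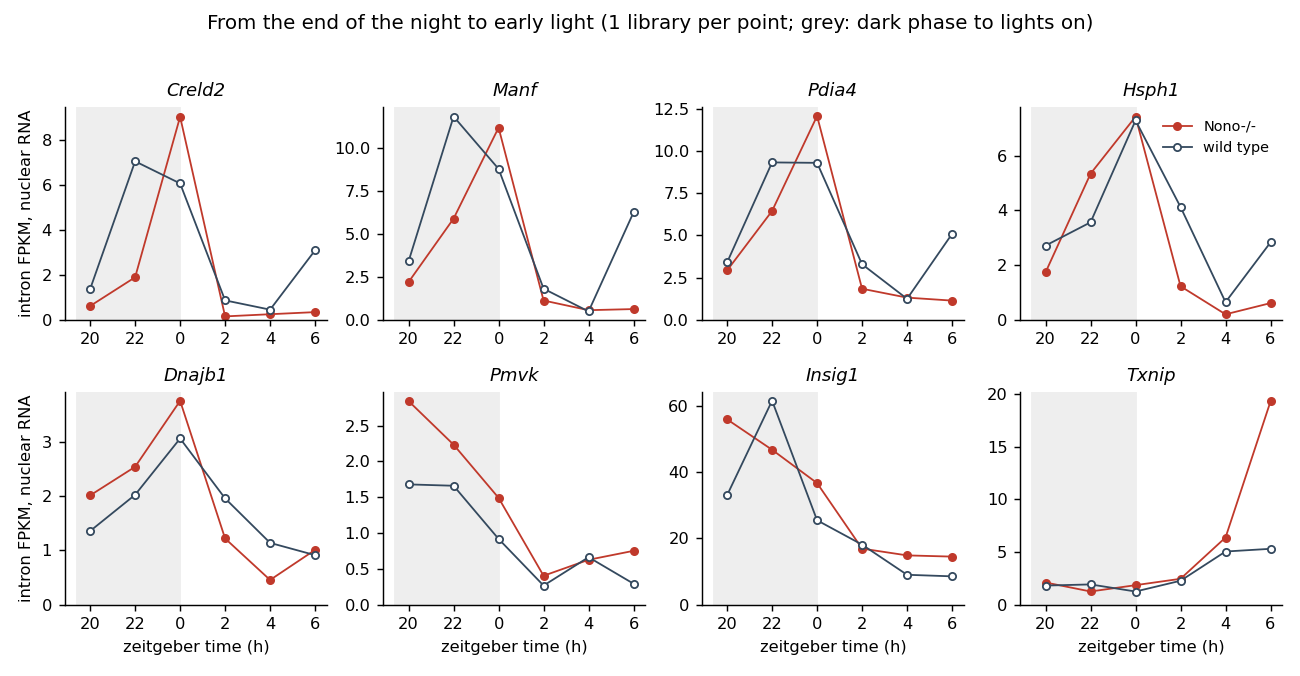
Intron FPKM as deposited of 8 genes against zeitgeber time from ZT20 to ZT6, with 1 nuclear RNA library per point (filled red, Nono-/-; open, wild type) and the dark phase shaded up to lights on at ZT0. In Nono-/- nuclei Creld2, Manf, Pdia4, Hsph1 and Dnajb1 peaked at ZT0 and were low from ZT2, Pmvk and Insig1 were lower at each time from ZT20 to ZT2, and Txnip was highest at ZT6.

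Of 21 genes of fatty acid oxidation and ketogenesis 4 rose, where 4.5% of all tested genes did. Cpt1a, which brings long-chain fatty acids into mitochondria, had 2.45, 4.46 and 5.25 FPKM of intron signal in early light and 2.14, 1.12 and 1.67 FPKM in late night, a 2.51-fold rise (log2 1.33 ± 0.29 SE, limma adjusted p = 0.0105). ZT2 lay only just above ZT20, and the call was lost without ZT22 (adjusted p = 0.0536) and in a fit on the 6 libraries alone. Acadl, the long-chain acyl-CoA dehydrogenase, had 1.74, 2.12 and 2.23 FPKM against 1.38, 1.18 and 1.07 FPKM and rose 1.74-fold (limma adjusted p = 0.00121), under each alternative tried. The other 17 did not pass (median log2 change 0.47, 4 of the 21 below 0), and 1 to 5 rose with any 1 library left out. The others that rose were Acaa2, a mitochondrial thiolase (log2 0.75, limma adjusted p = 0.0189, lost without ZT0, ZT6 or ZT22, highest adjusted p = 0.0654), and Ppara, the fatty acid sensing nuclear receptor (log2 0.71, limma adjusted p = 0.0425, lost without ZT0, ZT4, ZT6 or ZT22, highest adjusted p = 0.195). Ppara had 5.05, 9.61 and 13.8 FPKM in early light and 7.26, 5.30 and 4.64 FPKM in late night, so ZT2 was below ZT20. Both were also lost without scaling, where 2 genes of the list rose.

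Of 16 insulin signalling genes 3 rose, and of 8 glycogen genes 2, where 4.5% of all tested genes rose. Igfbp2, a binding protein for insulin-like growth factors, had 13.7, 22.2 and 15.3 FPKM in early light and 2.02, 2.09 and 4.63 FPKM in late night. The windows were well apart, and the rise of 6.43-fold (log2 2.69 ± 0.53 SE, limma adjusted p = 0.00731) held under each alternative tried. Insr, the insulin receptor, had 3.20, 3.67 and 3.41 FPKM against 2.36, 2.45 and 2.33 FPKM, a narrow spread within each window and a rise of 1.51-fold (limma adjusted p = 0.0156) that was lost without ZT0 or ZT20 (highest adjusted p = 0.051). Trib3, a pseudokinase that binds AKT, also rose, at a low level (0.128 to 0.616 FPKM against 0.0510 to 0.120 FPKM, limma adjusted p = 0.0296), lost without ZT0, ZT4, ZT6, ZT20 or ZT22 (highest adjusted p = 0.136). The remaining 13 of 16 insulin signalling genes did not pass. The list had a median log2 change of 0.03, with 8 genes below 0, against -0.02 over all tested genes.

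The other 6 glycogen genes did not pass. Gys2, the liver glycogen synthase, had 4.67, 3.002 and 16.9 FPKM in early light and 1.82, 1.84 and 2.39 FPKM in late night (3.22-fold, limma adjusted p = 0.0305), with most of the rise at ZT6, and was lost without ZT0, ZT6, ZT20 or ZT22 (highest adjusted p = 0.14). Ugp2, which makes UDP-glucose and overlaps Vps54, had 14.8, 6.57 and 17.7 FPKM against 4.02, 4.86 and 6.78 FPKM (log2 1.30, limma adjusted p = 0.0364), and was lost without ZT0, ZT2, ZT6, ZT20 or ZT22 (highest adjusted p = 0.134). Outside that list, Ppp1r3b, which brings protein phosphatase 1 to glycogen, fell to 10.4, 8.02 and 6.07 FPKM, against 27.9, 18.5 and 25.0 FPKM in late night, without overlap (log2 -1.47, limma adjusted p = 0.0277), and was lost without ZT0, ZT4, ZT6 or ZT20 (highest adjusted p = 0.104). Slc2a2, the glucose carrier GLUT2, rose (8.63 to 20.8 FPKM against 3.57 to 7.66 FPKM, limma adjusted p = 0.0436) and was lost without any 1 library but ZT4 (highest adjusted p = 0.184). Of the glycolytic enzymes Pgk1 fell 2.43-fold (0.620 to 1.496 FPKM against 2.11 to 2.36 FPKM, limma adjusted p = 0.0109) with any 1 library left out. Tpi1, which overlaps Spsb2, fell 1.65-fold (limma adjusted p = 0.0418) but not without ZT0, ZT2, ZT6 or ZT20 (highest adjusted p = 0.149). The other 11 of 14 glycolysis genes did not pass, where 4.5% of all tested genes rose and 4.74% fell.

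None of the 12 gluconeogenesis genes passed, and the median log2 change was 0.62. An unadjusted p under 0.05 (limma) was reached by 4 of the 12, where 26.9% of all tested genes reached it. Pcx, the pyruvate carboxylase, changed by 0.70 (limma adjusted p = 0.0555), and Pck1, the phosphoenolpyruvate carboxykinase, by 0.68 (limma adjusted p = 0.497). Nr4a1, an orphan nuclear receptor that glucagon and other cAMP signals induce in liver, had 0.531, 0.807 and 1.87 FPKM in early light and 0.179, 0.0820 and 0.252 FPKM in late night. Every early light library was above every late night one and the rise was 4.94-fold (log2 2.31 ± 0.49 SE, limma adjusted p = 0.00985), with any 1 library left out. Nr4a2, of the same family, rose 3.03-fold (0.242 to 0.628 FPKM against 0.0710 to 0.125 FPKM, limma adjusted p = 0.0121) and was lost without ZT6 or ZT22 (highest adjusted p = 0.0543). Igfbp1, a further cAMP and fasting response gene, had 18.9, 38.0 and 22.6 FPKM against 12.8, 3.21 and 11.7 FPKM without overlap, and did not pass (log2 1.76, limma adjusted p = 0.149). The list of 12 tested genes thus held 2 that rose, 1 that fell (Ppp1r3b) and 9 that did not pass. Over all tested genes 4.5% rose and 4.74% fell. Egr1, an immediate early transcription factor, had 0.204, 1.26 and 0.385 FPKM against 0.0580, 0 and 0 FPKM (log2 3.08, limma adjusted p = 0.0373), lost without ZT0, ZT4, ZT6, ZT20 or ZT22 (highest adjusted p = 0.116), and was the single riser of 7 immediate early genes.

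Of 11 tested autophagy genes 3 rose and of 13 ribosome biogenesis genes 4 fell, where 4.5% of all tested genes rose and 4.74% fell. The others did not pass, the medians were 0.44 and -0.60, and 0 to 3 genes of either list were called with any 1 library left out. Ulk1, the kinase that starts autophagy, had 1.70, 3.71 and 3.72 FPKM in early light and 1.65, 0.906 and 1.49 FPKM in late night, a rise of 2.26-fold (limma adjusted p = 0.0109) that was lost without ZT22 (adjusted p = 0.0546). Gabarapl1, an ATG8 family protein that overlaps 1700101I11Rik, had 8.47, 8.08 and 7.46 FPKM against 4.15, 3.63 and 3.30 FPKM (limma adjusted p = 0.028), tight within each window, and was lost without any 1 library but ZT4 (highest adjusted p = 0.0895). Atg14, of the autophagy-starting lipid kinase complex, rose 1.47-fold (limma adjusted p = 0.036) and was lost without any of the 6 libraries (highest adjusted p = 0.111). Nop56 and Nop58, core proteins of box C/D small nucleolar RNPs, fell 1.85-fold and 2.00-fold (limma adjusted p = 0.0183 and 0.0268), Polr1b, a subunit of RNA polymerase I, 1.65-fold (limma adjusted p = 0.0334) and Nolc1, a nucleolar phosphoprotein, 2.25-fold (limma adjusted p = 0.0216). Nop56 had 0.911 to 1.52 FPKM in early light and 2.09 to 3.13 FPKM in late night. Each of the 4 was lost without ZT20 and 1 or more other libraries (highest adjusted p from 0.0738 to 0.0906). The introns of Nop56 and Nop58 host small nucleolar RNAs whose reads cannot be told apart.

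In the lists for amino acid breakdown and the urea cycle (18 tested), acute phase (12), glucocorticoid targets (10), clock-linked cell cycle genes (6), paraspeckle and nuclear RNA (11) and SR and hnRNP splicing factors (17) no intron signal passed (limma), with 2, 1, 2, 1, 2 and 0 genes at an unadjusted p under 0.05. Of all tested genes 26.9% reached that level. Of 10 genes of NAD synthesis and sirtuins, Sirt3, the mitochondrial deacetylase that overlaps Ric8, rose 1.27-fold (limma adjusted p = 0.0287, lost without any 1 library but ZT6, highest adjusted p = 0.104). Of 11 cytochrome P450 and heme genes, Cyp2c29 fell 3.32-fold (3.19 to 10.9 FPKM against 22.3 to 27.1 FPKM, limma adjusted p = 0.0263, lost without ZT0, ZT4, ZT20 or ZT22, highest adjusted p = 0.0996), and Fech, the last enzyme of heme synthesis, rose 1.39-fold (limma adjusted p = 0.0248, lost without ZT2, ZT20 or ZT22, highest adjusted p = 0.113). Over all tested genes 4.5% rose and 4.74% fell.

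**Figure D3:**
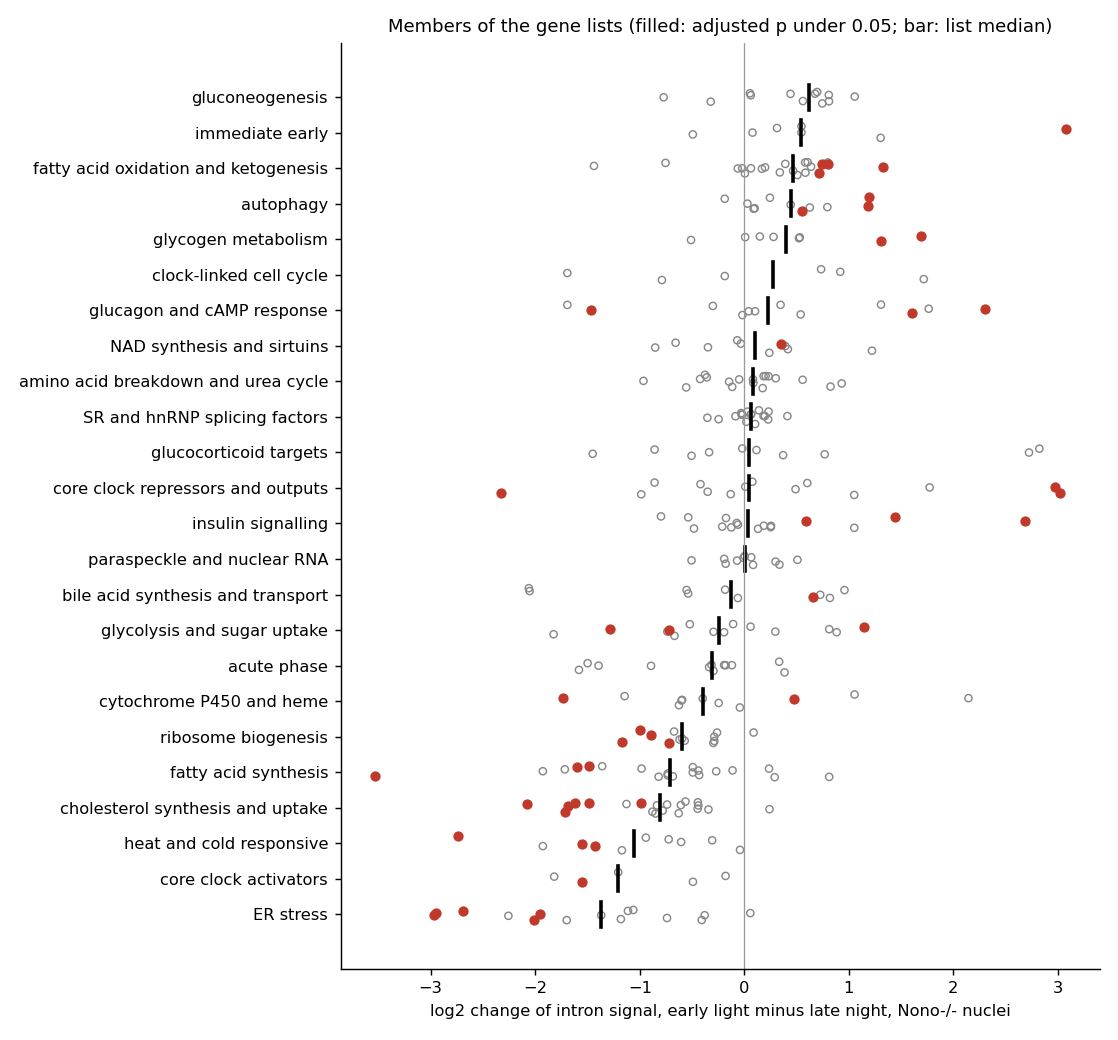
Log2 change of intron signal between early light and late night in Nono-/- nuclei for the tested members of 24 gene lists, with 1 point per gene, filled where the limma adjusted p was under 0.05, and a bar at each list median. ER stress, core clock activators and heat and cold responsive genes have the lowest medians (-1.37, -1.21 and -1.06) and gluconeogenesis the highest (0.62), while without ZT6 that of the 5 core clock activators is -0.31.

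Among the largest changes outside these lists, several were as steep as the clock genes. B930025P03Rik, a noncoding RNA gene by the tables, had 0.950, 0.918 and 1.04 FPKM of intron signal in early light and 0.0920, 0.0770 and 0.0920 FPKM in late night. With nearly equal libraries in each window it had the lowest adjusted p of all tested genes (7.80-fold higher, log2 2.96 ± 0.19 SE, limma adjusted p = 3.55e-08). Gpcpd1, which cleaves glycerophosphocholine, had 13.6, 11.5 and 17.999 FPKM against 3.20, 3.23 and 3.47 FPKM, 4.47-fold higher (limma adjusted p = 0.000947). Hsd17b6 and Rdh9, both dehydrogenases of the retinol and steroid family, rose 5.98-fold (5.31 to 9.85 FPKM against 1.09 to 1.80 FPKM, limma adjusted p = 0.0119) and 4.60-fold (0.514 to 1.17 FPKM against 0.104 to 0.271 FPKM, limma adjusted p = 0.00105). Cib3, of the calcium and integrin binding family, rose 4.14-fold (limma adjusted p = 0.00759). These 5 calls held under each alternative tried. The P450 genes Cyp3a59 and Cyp4a32 rose 6.38-fold and 4.17-fold (limma adjusted p = 0.0171 and 0.0277). The first was lost without ZT0, ZT6 or ZT22 and the second without ZT0, ZT2, ZT4 or ZT22 (highest adjusted p = 0.0594 and 0.114). Near-identical P450 copies may share their reads. Txnip, a glucose-responsive arrestin that overlaps Gm15441, had 2.47, 6.38 and 19.3 FPKM against 2.11, 1.26 and 1.86 FPKM (limma adjusted p = 0.0318), most of it at ZT6, and was lost without any 1 library but ZT2 (highest adjusted p = 0.148).

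Among the falls, Tsku, a secreted liver proteoglycan, had 0.631, 0.708 and 1.26 FPKM in early light and 10.05, 3.84 and 9.13 FPKM in late night (7.70-fold, limma adjusted p = 0.00731). Cml5, of the N-acetyltransferase 8 family, had 0.162, 0.0690 and 0.220 FPKM against 2.36, 3.33 and 1.17 FPKM (10.8-fold, limma adjusted p = 0.00283). Both falls held under each alternative tried. The related Nat8 fell 6.74-fold (limma adjusted p = 0.0193, lost without ZT2, ZT20 or ZT22, highest adjusted p = 0.0668). Serpina4-ps1, a pseudogene of the serpin family, had the highest intron signal of these genes, with 27.4, 9.82 and 9.71 FPKM against 202.6, 146.1 and 131.9 FPKM, and lost its call (limma adjusted p = 0.0313) without any 1 library but ZT2 (highest adjusted p = 0.0985). The noncoding A730063M14Rik fell 8.50-fold (limma adjusted p = 0.00822) with any 1 library left out. Tmem102 was listed at 0 in all early light libraries and at 2.23, 0.461 and 1.25 FPKM in late night (limma adjusted p = 0.0249, lost without ZT0, ZT4, ZT6 or ZT20, highest adjusted p = 0.0854), and it overlaps G630025P09Rik. Chrna4, a nicotinic receptor subunit, Clic3, of the chloride intracellular channel family, and Rnf225 fell, with log2 changes between -2.86 for Rnf225 and -2.49 for Clic3 (limma adjusted p from 0.0128 to 0.0383), and each lost its call without ZT22 (highest adjusted p from 0.0551 to 0.128).

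Nuclear exons gave fewer calls. Of 10398 genes tested, 294 rose (2.83%) and 209 fell (2.01%) in early light (limma, adjusted p under 0.05), in all 4.84% of the genes, where 23.5% had an unadjusted p under 0.05. By at least 2-fold, 105 rose and 109 fell. As deposited, the windows did not overlap for 4.05% of the genes upward and 24.2% downward, in all 28.2%. The count of 503 was 128 without ZT6, 144 without ZT0, 157 without ZT22, 186 without ZT20 and 335 without ZT2, while without ZT4 it was 675, with 354 higher and 321 lower. With the exon share as a covariate, chosen after seeing the data, 249 genes were called. The balance of directions depended on the scaling: without it 75 rose and 396 fell, so higher calls were 15.9% of the calls, against 58.4% with it, and the medians of 7 of 24 gene lists changed sign.

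Nr1d2 exons had 7.13, 7.10 and 15.2 FPKM in early light and 1.30, 0.894 and 1.49 FPKM in late night (8.81-fold, log2 3.14 ± 0.39 SE, limma adjusted p = 0.000304), and B930025P03Rik had 1.91, 1.68 and 1.89 FPKM against 0.127, 0.0790 and 0.179 FPKM (10.5-fold, limma adjusted p = 2.1e-05). Both stood clear of the late night libraries. Egr1 exons, with 0.845, 3.23 and 1.26 FPKM against 0.204, 0.212 and 0.161 FPKM, rose 6.78-fold (limma adjusted p = 0.00591) with any 1 library left out. Nr1d1 exons rose too (limma adjusted p = 0.0375), with ZT2 at 0.251 FPKM near the 0.118 to 0.213 FPKM of late night, and were lost without any 1 library but ZT2 (highest adjusted p = 0.133). Rnf152, a lysosomal ubiquitin ligase, rose 4.40-fold (3.87 to 5.04 FPKM against 0.982 to 1.21 FPKM, limma adjusted p = 0.00206), under each alternative tried. Zc3h6, a zinc finger protein, rose 4.13-fold (limma adjusted p = 0.00937) but not without ZT0 (adjusted p = 0.0503). Cyp3a59 and Cyp4a32 exons rose 5.76-fold and 4.57-fold (limma adjusted p = 0.026 and 0.0207), lost without ZT0 or ZT22 among others (highest adjusted p = 0.0971 and 0.0958).

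Single genes of sterol and lipid synthesis also fell in exons. Aacs, which activates acetoacetate for lipid synthesis, had 0.351, 0.331 and 0.826 FPKM in early light and 7.60, 5.52 and 4.55 FPKM in late night, 8.69-fold lower (log2 -3.12 ± 0.53 SE, limma adjusted p = 0.00419). Fdps had 0.364, 1.501 and 0.880 FPKM against 7.05, 4.94 and 6.11 FPKM, 5.61-fold lower (limma adjusted p = 0.00134). Both falls held under each alternative tried and their windows were far apart. Over all tested genes 2.01% fell in exons. Of 18 tested cholesterol genes 3 fell in exons (among them Pmvk and Fdps, median log2 change -0.84 against -0.01 over all tested genes) and of 20 fatty acid synthesis genes 2 (Thrsp and Pnpla3, median -0.76). Thrsp, a lipogenic regulator, and Pnpla3, a lipid droplet lipase, lost their calls (limma adjusted p = 0.0487 and 0.0473) without ZT2, ZT4, ZT6, ZT20 or ZT22, and Thrsp also without ZT0 (highest adjusted p = 0.178 and 0.177). Scd1 exons had 24.0, 31.7 and 20.04 FPKM against 79.5, 86.2 and 32.9 FPKM (log2 -0.98, limma adjusted p = 0.149), beside the 11.6-fold fall of its introns. Cry1 exons fell 4.65-fold (0.463 to 1.20 FPKM against 2.99 to 5.16 FPKM, limma adjusted p = 0.0166, lost without ZT6, ZT20 or ZT22, highest adjusted p = 0.076). Per2 exons fell 3.74-fold (0.719 to 1.501 FPKM against 3.83 to 5.65 FPKM, limma adjusted p = 0.0183, lost without ZT20 or ZT22, highest adjusted p = 0.0679). Of the 15 ER stress genes 3 fell in exons, Pdia4, Calr and Manf (log2 -1.35, -1.36 and -1.71), and each was lost without ZT0, ZT6 or ZT22 (highest adjusted p from 0.111 to 0.162).

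The exon rises of Cpt1a (log2 0.92, limma adjusted p = 0.0182), Acadl (log2 0.60, limma adjusted p = 0.0189) and Insr (log2 0.61, limma adjusted p = 0.013) depended on the scaling. As deposited Cpt1a exons had 5.54, 11.8 and 9.63 FPKM in early light and 7.83, 4.30 and 5.10 FPKM in late night, with ZT2 among the late night values, and the 3 calls were lost without scaling. All 3 calls were also lost without ZT0, and those of Cpt1a and Acadl without ZT6 or ZT22 as well (highest adjusted p from 0.0702 to 0.0858 over the libraries left out). Igfbp2 exons, with 2.88, 12.9 and 4.70 FPKM against 2.50, 2.19 and 5.06 FPKM, overlapped and did not pass (log2 1.17, limma adjusted p = 0.176), while its introns were 6.43-fold higher. Exons of Abcg8 and Gpcpd1 rose 3.73-fold and 3.45-fold (limma adjusted p = 0.000199 and 0.00419) under each alternative tried. Among the other falls, Cml5 exons fell 7.57-fold (limma adjusted p = 0.0105), with any 1 library left out but not in a fit on the 6 libraries alone (adjusted p = 0.0729). Tsku exons fell 6.59-fold (limma adjusted p = 0.0218, lost without ZT0, ZT6 or ZT20, highest adjusted p = 0.0857), and Serpina4-ps1 exons 9.65-fold (16.4 to 29.4 FPKM against 212.1 to 375.6 FPKM, limma adjusted p = 0.0426, lost without any of the 6 libraries, highest adjusted p = 0.127).

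The switch was then set beside that of wild type, in which 149 genes rose (1.24%) and 51 fell (0.424%) in introns, in all 1.66% of the genes (limma). In exons 32 rose (0.308%) and 6 fell (0.0577%), in all 0.365%. An unadjusted p under 0.05 was reached by 18.6% and 11.6% of the genes. No gene passed the test of a difference in the switch between the genotypes: the interaction test of limma called 0 of 12036 genes in introns, with 771 (6.41%) at an unadjusted p under 0.05 and a lowest adjusted p of 0.768. In exons it called 0 of 10398, with 373 (3.59%) at an unadjusted p under 0.05 and a lowest adjusted p of 0.989. That fit leaves out the matching of times between the genotypes. With the time point as a block, limma also called 0 genes, with 1466 in introns and 662 in exons at an unadjusted p under 0.05. The lowest adjusted p was then 0.196 and 0.523. Interaction p-values of single genes below are from the fit without the block. In that fit the median standard error of the difference was 0.28 (log2) in introns and 0.35 in exons, against 0.20 and 0.25 for the switch in Nono-/- alone. Of the 542 genes that rose in Nono-/- introns 513 had a positive change in wild type, and of the 571 that fell 531 had a negative one, where 69.7% of all tested genes had the same sign in both genotypes. Median changes over these genes were 0.73 in Nono-/- and 0.41 in wild type for the first and -0.81 and -0.37 for the second. Because the genes were chosen on the Nono-/- values, the larger Nono-/- medians are a description only.

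Nr1d2 introns changed by 2.98 in both genotypes, with 2.75, 3.63 and 6.10 FPKM in Nono-/- and 2.24, 3.997 and 5.175 FPKM in wild-type early light. Scd1 introns changed by -3.53 in Nono-/- and -3.44 in wild type (interaction adjusted p = 0.989, limma). Other genes stood further apart. Nr4a1 introns, at 0.531 to 1.87 FPKM in Nono-/- early light and 0.0620 to 0.232 FPKM in wild-type early light, changed by 2.31 in Nono-/- and 0.04 in wild type, a difference of 2.27 ± 0.70 (log2 ± SE) that did not pass (unadjusted p = 0.00417, limma adjusted p = 0.768). Aacs introns, at 0.217, 0.286 and 0.856 FPKM in Nono-/- and 0.467, 1.58 and 3.02 FPKM in wild-type early light, changed by -2.46 and -0.11, a difference of -2.35 ± 0.73 (unadjusted p = 0.0045, limma adjusted p = 0.768). Rnf152 introns changed by 1.44 and 0.05 (difference 1.39 ± 0.47, limma adjusted p = 0.768). List medians were not tested between the genotypes. That of ribosome biogenesis was -0.60 in Nono-/- and -0.04 in wild type. Those of immediate early genes (0.55 and -0.63) and of cytochrome P450 and heme genes (-0.40 and 0.34) stood further apart. Medians of ER stress genes (-1.37 and -1.48), core clock activators (-1.21 and -1.34) and autophagy genes (0.44 and 0.54) lay closer together. Manf introns had 1.81, 0.482 and 6.27 FPKM in wild-type early light and 3.42, 11.9 and 8.80 FPKM in wild-type late night (log2 -1.92, limma adjusted p = 0.166). The high wild-type ZT6 library has no counterpart in Nono-/-, where ZT6 was at 0.619 FPKM, and each of these values is 1 library.

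**Figure D4:**
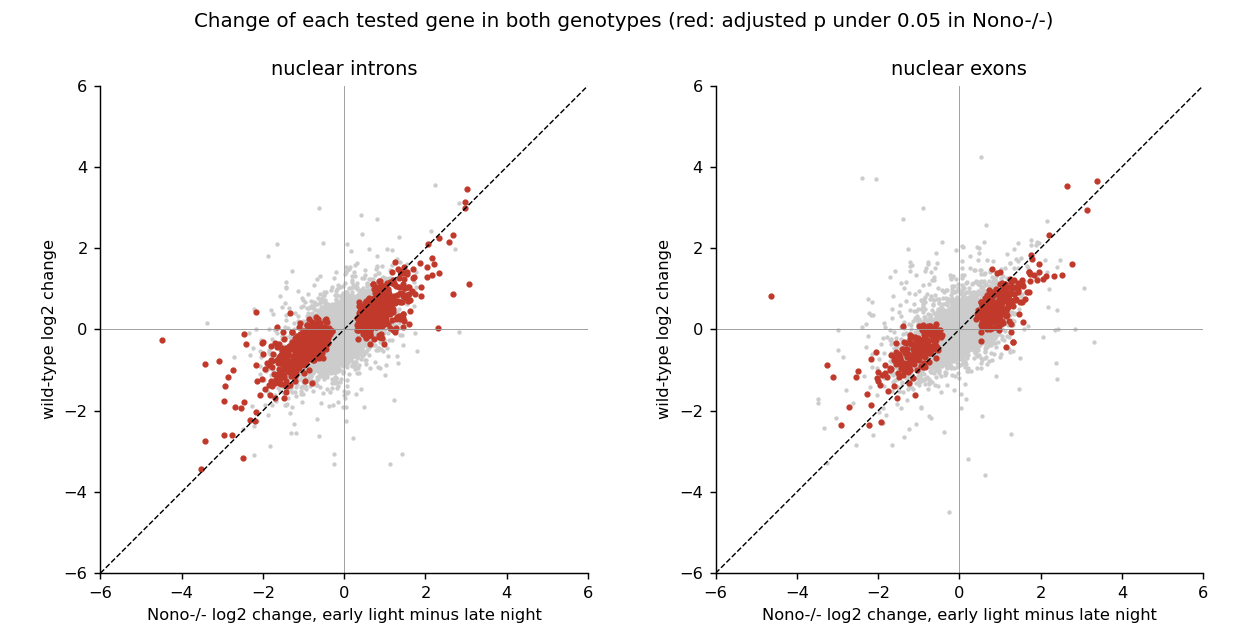
Log2 change between early light and late night of every tested gene in Nono-/- (horizontal axis) and wild type (vertical axis), for nuclear introns and exons, with genes past an adjusted p of 0.05 in Nono-/- in red and the line of equal change dashed. Red points fall mostly in the quadrants of equal sign (513 of 542 and 531 of 571 genes in introns) and closer to the horizontal axis than to the vertical one, the side on which they were chosen.

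Finally the ratio of nuclear to total exon signal was taken within each Nono-/- liver. Of 9782 genes 10 ratios rose (0.102%) and 6 fell (0.0613%) in early light (limma, adjusted p under 0.05), in all 0.164%, where 16.3% had an unadjusted p under 0.05. In total RNA alone 18 genes rose (0.184%) and 7 fell (0.0716%), in all 0.256%, against 10.1% at an unadjusted p under 0.05. Cyp4f14, a P450 that degrades leukotrienes and other fatty acids, had 2.28, 3.48 and 3.998 FPKM in nuclear exons in early light and 11.6, 10.5 and 9.07 FPKM in late night, while total RNA held 71.3, 67.3 and 81.9 FPKM and 73.7, 86.8 and 58.8 FPKM. The nuclear values were well apart, the total values overlapped, and the ratio fell by 1.35 (log2, limma adjusted p = 0.0353). F5, coagulation factor V, had 16.1, 19.0 and 22.4 FPKM against 11.1, 10.2 and 10.7 FPKM in nuclei and 51.4, 78.4 and 69.1 FPKM against 75.3, 67.2 and 66.9 FPKM in total RNA, and its ratio rose by 1.28 (limma adjusted p = 0.0353), although F5 overlaps Gm16548. In 8430408G22Rik the ratio fell by 1.95 (limma adjusted p = 0.0353) with total RNA at 45.7, 44.3 and 41.4 FPKM in early light and 7.70, 5.94 and 9.15 FPKM in late night, an increase in total RNA that passed by itself (log2 2.48, limma adjusted p = 0.023). Amt, of the glycine cleavage system, and 1500012F01Rik also fell in ratio, and Rdh9, Gm19522 and 4933433G19Rik rose, by 1.39 to 1.70 in absolute log2 units. Here 8430408G22Rik overlaps Rassf4, 1500012F01Rik overlaps Snord12 and Znfx1, Gm19522 overlaps Zbtb20 and 4933433G19Rik overlaps Ptdss1. The reads of such neighbours cannot be told apart. No ratio passed without ZT0, ZT6, ZT20 or ZT22 and 2 passed without ZT2. Without ZT4 3 ratios rose and 10 fell, so the balance of directions rests on single libraries too.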

How the data were processed

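Total and nuclear RNA of mouse livers was sequenced as stranded, ribosomal RNA-depleted libraries, per the labels' protocols, and FastQC 0.11.2, STAR 2.4.0k and mm10 are named in the submitters' processing notes. The deposited FPKM values over introns or exons were computed with HOMER without a strand option, per the file headers, and the sources used here do not name the HOMER version. Low values came out as whole reads (within 0.1 of a read, values of up to 10 reads), which gave depths of 12.7 to 28.9 M reads over the Nono-/- nuclear libraries. Each of the 24 nuclear libraries was scaled to the median gene, and log2(scaled FPKM + 0.05) of introns or log2(scaled FPKM + 0.1) of exons was fitted with limma 3.58.1 (trend, R 4.3.3) in 8 groups of 3 neighbouring times, leaving 16 residual degrees of freedom. Genes were tested where their mean reached 0.1 FPKM (introns) or 0.5 FPKM (exons), with Benjamini-Hochberg adjustment over all of them, and a fold on this scale understates the change of low genes. The ratio was fitted on the log2 difference of nuclear and total exons. The fit was tested on simulated data, drawn as independent normal values around 1 mean per gene, so without change over time within a window. For the Nono-/- switch it recovered 75% of log2 changes of 1 in introns and 46% in exons. For the difference between genotypes it recovered 42% and 16% of them, and for the ratio 42%.

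Genes named outside the lists are the 15 largest non-overlapping changes each way in introns with at least 0.2 FPKM in the higher window, the 8 each way in exons with at least 1 FPKM, the 4 each way in the ratio and a selection from the genotype differences. Some genes that these rules or the lists include are not reported here by name. The windows, lists and motifs were chosen with earlier results of these data known. Alternatives changed the pseudocount, filter, scaling, libraries and covariates.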

Additional observations from a re-analysis of the deposited data

How the results depend on the processing

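Introns gave 267 calls, against 1113, in a fit on the 6 livers alone and 608 with the exon share as a covariate (chosen after seeing the data), and 359 to 932 with any 1 of the 6 libraries left out. The other intron settings gave 875 to 1126. Exons gave 299 calls, against 503, with no filter, 31 with the 6 livers alone, 249 with the exon share as a covariate, and 128 to 675 with 1 library left out. The difference between genotypes gave 1 call in introns and 4 in exons with no filter, and 0 to 0 with any 1 library left out. The ratio gave 28 calls, against 16, at a minimum mean 4 times higher, 0 with no filter, 2 without scaling, 1 with the 6 livers alone and 0 to 13 with 1 library left out. The causes were not tested, beyond fewer libraries leaving fewer degrees of freedom. No call on a named gene turned its direction, but list medians changed sign in 5 (introns) and 7 (exons) of 24 lists without scaling, and in 9 and 7 with 1 library or another left out. Without ZT4 3 of the 13 ratio calls were higher and 10 lower, against 10 and 6 in the full fit. Of 68 calls on named genes in introns, 36 were lost with the 6 livers alone, 25 with the exon share, 20 with no filter and 8 without scaling; of 37 in exons, 28, 15, 11 and 9 were. Deviations of same-time samples correlated across genotypes at -0.06 to 0.48 in introns and -0.22 to 0.47 in exons, above 0.1 at 8 and 7 of 12 times. Since not every time was above 0.1, the main fit did not treat the times as pairs, although both genotypes were sampled at the same times. Of the 12 Nono-/- samples 6 (introns) and 7 (exons) correlated best with the wild-type sample of their own time. With the time point as a replicate block, the genotype difference gave 0 calls in introns and 0 in exons, with 1466 and 662 genes at an unadjusted p under 0.05 (limma). The lowest adjusted p was 0.196 and 0.523 with the block, against 0.768 and 0.989 without it.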

Other observations

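A total of 70 genes that rose and 64 that fell in introns kept their calls under each alternative and with each library left out. The genes below were picked from them after their values were seen. Among the falls, Srm, the spermidine synthase, had 0.136, 0.187 and 0.0980 FPKM of intron signal in early light and 0.817, 0.641 and 1.09 FPKM in late night (log2 -2.17, limma adjusted p = 0.00731), and Odc1, the ornithine decarboxylase of the same pathway, fell by 1.22 on the log2 scale (limma adjusted p = 0.0124). Mybbp1a, a nucleolar protein, had 0.447, 0.551 and 0.568 FPKM against 1.62, 1.64 and 1.45 FPKM, with tight libraries in each window (log2 -1.43, limma adjusted p = 0.000521). The ribosomal protein gene Rpl4 (log2 -0.75), the chaperonin subunit gene Cct5 (log2 -0.88), the isoleucyl-tRNA synthetase gene Iars (log2 -0.94) and the importin gene Kpnb1 (log2 -0.88) fell by less than 2-fold. Fkbp4, a co-chaperone of HSP90, fell 3.88-fold (limma adjusted p = 0.000947), and the sterol genes Ebp and Tm7sf2 fell 2.04-fold and 2.66-fold (limma adjusted p = 0.000956 and 0.0027).

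Among the rises, Gch1, the first enzyme of tetrahydrobiopterin synthesis, had 5.07, 7.32 and 9.10 FPKM in early light and 2.69, 2.34 and 2.27 FPKM in late night (log2 1.58, limma adjusted p = 0.00105). Aqp9, the glycerol channel of hepatocytes, had 6.36, 7.79 and 9.17 FPKM against 4.31, 3.81 and 4.40 FPKM (log2 0.95, limma adjusted p = 0.0111). Eci2, an enoyl-CoA isomerase of fatty acid oxidation, rose 2.37-fold (limma adjusted p = 0.00403), and Hsd17b13, a lipid droplet protein, rose 2.01-fold (limma adjusted p = 0.00609). None of these windows overlapped in Nono-/- nuclei.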
